A study of Mus musculus with 6 samples.

Results

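The MHC class II antigen presentation genes were followed in thymocytes of the double-negative stage, which precedes CD4 and CD8 on the T cell path. The 8 genes are H2-Aa, H2-Ab1, H2-Eb1, Cd74, H2-DMa, H2-DMb1, Ifi30 and Ciita, out of 8251 genes that a single-gene probe set names on this Affymetrix mouse expression array. They were taken by name, as every probe set assigned to exactly 1 of them, which gave 9 probe sets, 2 of them for H2-DMa. Total RNA came from RAG1/Ezh2 double mutant mice (3 arrays) and from RAG1-deficient mice (3 arrays). By the labels both groups are deficient in RAG1, which cuts antigen receptor genes for their rearrangement, and only the double mutant also carries a mutation of Ezh2, the histone methyltransferase of a Polycomb repressive complex. The labels give neither the alleles, any Cre line, nor the strain, sex, age or number of animals, so p-values cover the spread between these arrays, which may be technical.

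Each group holds 1 array of each of 3 title styles, called numbered, Rag and Thy here, and the arrays of a style deviated from their group means together, so each member has a limma fit on group alone (the unpaired fit) and another that adds style as a block (the paired fit). Only the numbered and Thy titles name the double-negative stage, and the titles of the numbered and Thy RAG1-deficient arrays end in WT, a term the labels do not explain. Intensities are linear and had been scaled to a common trimmed mean of about 500.3 on every array. Ezh2, the targeted gene, read 291.5, 651 and 724 on double mutant arrays and 1435, 1641 and 1789.5 on RAG1-deficient arrays, in the order numbered, Rag and Thy, without overlap. The brighter probe set of Rag1 read 5394, 5226 and 5171 on double mutant arrays and 6933, 7241 and 7264 on RAG1-deficient arrays, so Rag1 RNA was detected in both groups. The labels do not say which part of Rag1 is altered, so this reading does not check the RAG1 label. Markers of double-negative thymocytes were bright throughout, with a summed intensity of 65933 to 86478 in the double mutant and 74868 to 103412 in the RAG1-deficient arrays over 12 of 15 listed genes, among which Cd44 alone stayed under the detection filter on every array. The numbered RAG1-deficient array stood apart in the CD8 genes, with 2973 for Cd8a and 8426 for Cd8b1, where no other array exceeded 81.3 and 164.

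MHC class II molecules are pairs of an alpha and a beta chain that display peptides from the endocytic pathway to CD4 T cells. The invariant chain, encoded by Cd74, fills their groove until H2-DM exchanges its remnant for a peptide, and the thiol reductase encoded by Ifi30 opens disulfide bonds of the proteins that are cut up for display. Ciita encodes the coactivator that switches these genes on, by docking on factors bound to the X and Y boxes of their promoters. In the mouse thymus, class II is known from epithelial cells, dendritic cells, macrophages and B cells, whereas mouse T lineage cells are known to carry little or none.

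Promoter stretches are shown for members that have an entry in the RefSeq promoter table (GRCm38.p6). The table matched 5 of the 8 genes, in 6 windows of 300 bases; H2-Ab1, Cd74 and Ciita are not shown. Each stretch covers the 150 bases before the RefSeq start site, 5′ to 3′ on the strand of the gene. Capitals mark CCAAT, the core of the Y box, and letters of X boxes searched on both strands: AGCAAC, then the motif ACAGATG, and lastly the motif AACNGATG. Where ATTGG is in capitals, CCAAT lies on the opposite strand.
H2-Aa, chr17:34287824-34287973, minus strand: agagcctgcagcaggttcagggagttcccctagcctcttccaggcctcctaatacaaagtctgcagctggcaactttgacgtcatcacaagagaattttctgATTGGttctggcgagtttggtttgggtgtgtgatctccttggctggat
H2-Eb1, chr17:34305717-34305866, plus strand: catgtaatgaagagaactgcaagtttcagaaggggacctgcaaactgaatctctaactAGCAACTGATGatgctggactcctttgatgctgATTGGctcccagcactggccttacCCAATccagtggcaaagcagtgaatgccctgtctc
H2-DMb1, chr17:34153041-34153190, plus strand: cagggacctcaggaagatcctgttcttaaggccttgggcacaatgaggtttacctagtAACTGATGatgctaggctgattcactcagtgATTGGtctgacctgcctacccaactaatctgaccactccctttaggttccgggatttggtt
H2-DMa, chr17:34122682-34122831, plus strand: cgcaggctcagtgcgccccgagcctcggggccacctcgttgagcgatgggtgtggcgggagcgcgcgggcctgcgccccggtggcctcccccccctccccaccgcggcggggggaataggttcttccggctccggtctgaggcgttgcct
Ifi30, chr8:70766664-70766813, minus strand: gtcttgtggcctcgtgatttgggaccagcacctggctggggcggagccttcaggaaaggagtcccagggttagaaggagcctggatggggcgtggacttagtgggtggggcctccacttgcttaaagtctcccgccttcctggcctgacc

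The stretches of H2-Aa, H2-Eb1 and H2-DMb1 hold CCAAT on the opposite strand, beginning 48, 59 and 61 bases before the start site, and H2-Eb1 holds a second copy on its own strand. AACNGATG, a motif chosen after these windows were read, lies 89 bases before the start in H2-Eb1 and 92 bases before it in H2-DMb1, and in H2-Eb1 it overlaps AGCAAC. None of the 4 motifs is in the printed stretch of H2-DMa or Ifi30, while outside the printed stretches H2-Aa has ACAGATG on the opposite strand 232 bases before its start, and the window of a second RefSeq start site of H2-DMa has CCAAT 198 bases upstream. Of all 32851 windows of this length, 37.4% hold CCAAT, 14.8% AGCAAC, 5.01% ACAGATG and 2.32% AACNGATG, so CCAAT alone is common. A match to these letters is a description of the sequence. Only exact matches were sought, so a stretch without one may still hold a variant of a box.

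The classical chains were bright on the numbered and Rag arrays and dim on the Thy arrays of both groups. H2-Aa, the alpha chain of the A molecule, read 4392, 2259 and 765.5 on double mutant arrays and 6935, 5323.5 and 646 on RAG1-deficient arrays, in the order numbered, Rag and Thy here and in all such sentences. H2-Ab1, its beta chain, read 2107, 1289 and 470.5 on double mutant arrays and 2893, 2263 and 379 on RAG1-deficient arrays. H2-Eb1, the beta chain of the E molecule, read 3891, 1808 and 625 on double mutant arrays and 5510, 4854 and 654 on RAG1-deficient arrays. In all 3 genes the numbered and Rag double mutant arrays lay below both RAG1-deficient arrays of those styles, the Thy arrays lay lowest, and the groups overlapped. Within the numbered and Rag pairs the double mutant stood at 63.3% and 42.4% of the RAG1-deficient level for H2-Aa, whereas in the Thy pair it stood at 119%. H2-Ab1 stood at 72.8%, 57.0% and 124%, and H2-Eb1 at 70.6%, 37.2% and 95.6%, in the numbered, Rag and Thy pairs.

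Cd74, the invariant chain, read 8216.5, 3411 and 1843 on double mutant arrays and 12086, 7996 and 2037 on RAG1-deficient arrays. The double mutant was lower in each pair, at 68.0%, 42.7% and 90.4% of the RAG1-deficient level, while the numbered double mutant array still lay above the Rag and Thy arrays of the RAG1-deficient group. Log2 differences throughout are of log2(intensity + 23), double mutant minus RAG1-deficient, a scale that understates the change of dim probe sets. On it Cd74 differed by -0.64 ± 0.71 (SE of the unpaired fit, n = 3 each), H2-Aa by -0.55 ± 0.90, H2-Ab1 by -0.32 ± 0.77 and H2-Eb1 by -0.66 ± 0.87. None of these 4 passed an adjusted p of 0.05 in either limma fit. In the paired fit, where 0.667% of all tested probe sets passed, their adjusted p lay between 0.23 for Cd74 and 0.568 for H2-Ab1. Leaving out the Thy double mutant array turned the unpaired difference to 0.12 for H2-Aa, 0.27 for H2-Ab1 and 0.02 for H2-Eb1, leaving out the numbered RAG1-deficient array turned it to 0.08 for H2-Aa and 0.22 for H2-Ab1, and leaving out the Rag RAG1-deficient array turned it to 0.04 for H2-Ab1.

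**Figure D1:**
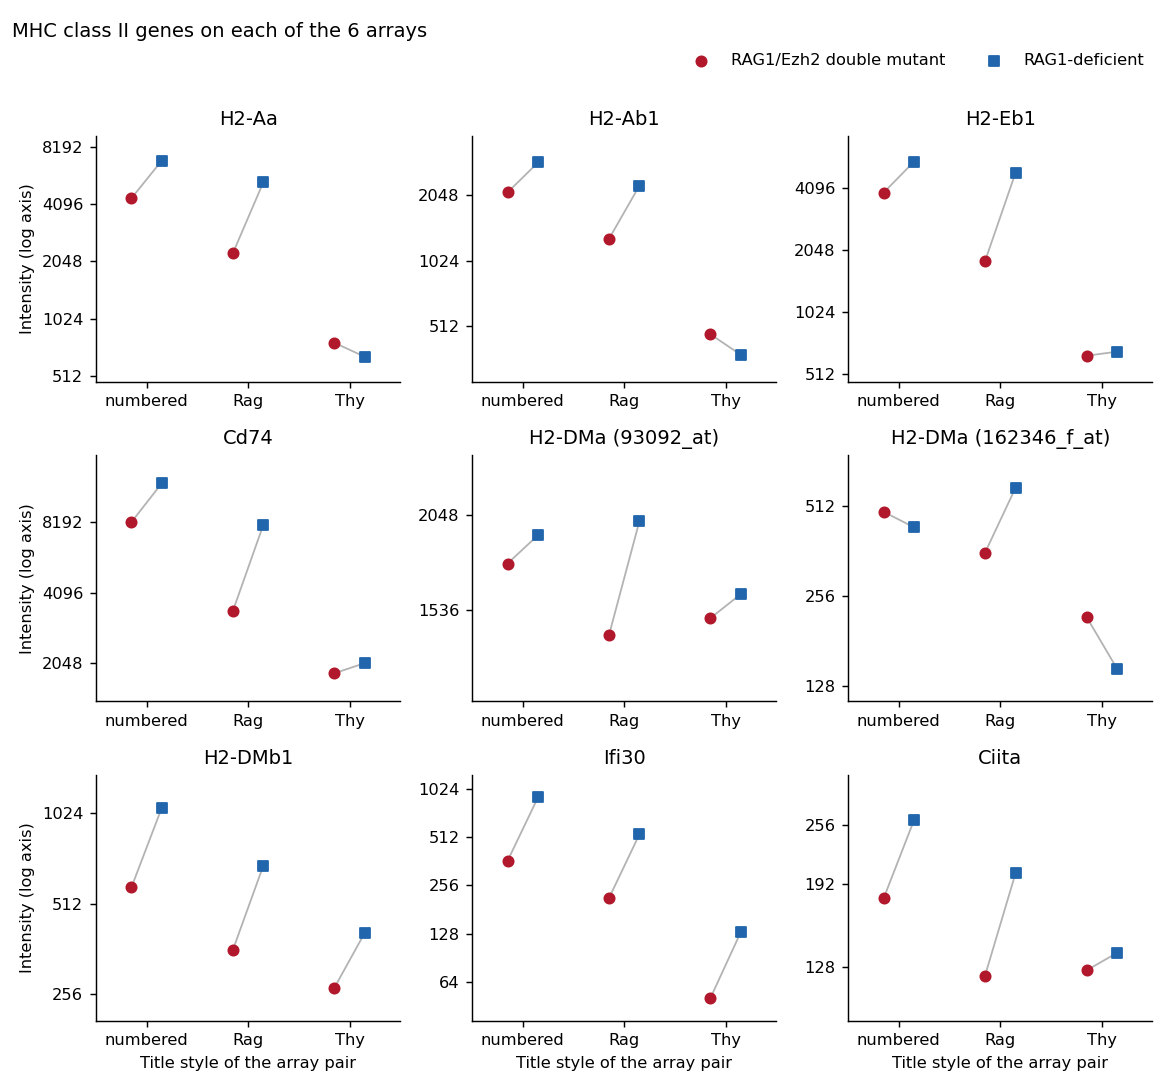
Intensity (log axis) of the 9 member probe sets on each array, with RAG1/Ezh2 double mutant arrays as circles and RAG1-deficient arrays as squares, joined within each title style (numbered, Rag and Thy). H2-Aa, H2-Ab1, H2-Eb1 and Cd74 are lowest on the Thy arrays of both groups, and Ifi30 is lower in the double mutant by a like distance in each pair.

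Ifi30 fell in the paired fit, as the only member to pass. This gene, for the lysosomal thiol reductase, read 364, 213 and 50.8 on double mutant arrays and 907, 534 and 131 on RAG1-deficient arrays. The groups overlapped, because the Thy RAG1-deficient array lay below the numbered and Rag double mutant arrays, yet within each pair the double mutant stood at nearly the same share of its partner, 40.2%, 39.97% and 38.75%. The means were 210 ± 157 (SD, n = 3) in the double mutant and 524 ± 388 (SD, n = 3) in the RAG1-deficient group, with a log2 difference of -1.19 and an SE of 0.17 in the paired limma fit (adjusted p = 0.0388). In the unpaired limma fit the SE was 0.75 and the adjusted p 1.0. Other paired limma fits ended this call: the adjusted p was 0.0635 after quantile scaling, 0.108 with no filter on low values, 0.223 with the numbered pair left out and 0.111 with the Thy pair left out, while it was 0.0112 with the Rag pair left out. The Thy double mutant value lay under the filter of 86.5, and the log2 difference was between -1.26 and -1.06 in the 3 pairs.

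Of the H2-DM genes, which encode the peptide exchange factor, the beta chain was lower in the double mutant in every pair, and the alpha chain varied little on its brighter probe set. H2-DMb1 read 580, 359 and 269 on double mutant arrays and 1066, 684 and 410 on RAG1-deficient arrays, at 54.4%, 52.5% and 65.7% of the RAG1-deficient level. The numbered double mutant array lay above the Thy RAG1-deficient array, so the groups overlapped. Its log2 difference of -0.77 ± 0.39 (SE, unpaired) did not pass in the paired limma fit (adjusted p = 0.0827) or in the unpaired one. H2-DMb2 is a close copy of H2-DMb1, and a probe set could detect both. The probe set assigned to H2-DMb2 alone was dim, at 117 ± 19.3 in the double mutant and 105 ± 13.4 in the RAG1-deficient group (SD, n = 3 each), with a log2 difference of 0.12.

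The brighter probe set of H2-DMa, the alpha chain, read 1770, 1425.5 and 1501 on double mutant arrays and 1928, 2011 and 1614 on RAG1-deficient arrays. The highest array was 1.41 times the lowest there, and the log2 difference was -0.24 ± 0.21 (SE, unpaired). The dimmer probe set of H2-DMa, whose suffix marks one that can detect related transcripts, read 489, 357 and 217.5 on double mutant arrays and 434, 588 and 146 on RAG1-deficient arrays. This probe set was higher in the double mutant in the numbered and Thy pairs and lower in the Rag pair, and its log2 difference of -0.004 ± 0.49 (SE, unpaired) changed sign with other settings. The probe sets of this gene therefore disagree on how much it varies over the arrays. Neither passed in either fit.

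Ciita, the coactivator, read 179, 123 and 126 on double mutant arrays and 262, 202 and 137 on RAG1-deficient arrays. Each pair had the double mutant lower, at 68.3%, 60.8% and 91.8% of the RAG1-deficient level, and the Thy RAG1-deficient array lay within the double mutant range. Its log2 difference was -0.41 ± 0.33 (SE, unpaired), and it did not pass in the paired limma fit (adjusted p = 0.475). Between the Thy arrays and the other 4 arrays Ciita differed by -0.43 (log2), whereas H2-Aa differed by -2.60. Ciita was dim, and the log2 scale understates the change of dim probe sets, so these sizes are not directly comparable.

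Set together, all 9 member probe sets lay lower in the double mutant by mean log2 value, with a median difference of -0.55, against -0.002 over all 7642 tested probe sets, of which 50.4% lay lower. All 9 had passed the filter, which asked for an intensity above 86.5 on at least 3 of 6 arrays. Of the 9, 6 were lower in all 3 pairs, as were 17.1% of all tested probe sets; the exceptions were H2-Aa, H2-Ab1 and the dimmer probe set of H2-DMa. The members sit on the same arrays and are no independent replicates of each other. By pair, the median over members was -0.50 (numbered), -0.89 (Rag) and -0.10 (Thy), while the median over all tested probe sets lay between -9.5e-05 and 0.01.

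In the unpaired limma fit 0 of 9 member probe sets passed, against 0.0393% of all tested probe sets, and 0 reached an unadjusted p under 0.05, as 0.903% did lower and 2.29% higher. In the paired fit 1 of 9 fell, Ifi30, where 0.105% of all tested probe sets fell and 0.563% rose. In that fit 4 of 9 (H2-Eb1, Cd74, H2-DMb1 and Ifi30) had an unadjusted p under 0.05, all 4 lower, against 5.4% of all tested that were lower and 7.73% that were higher at that level. The groups did not separate for any member, whereas they did for 7.13% of all tested probe sets, 2.92% lower and 4.21% higher. Exact two-sided permutation tests of single members gave p between 0.2 and 1.0, and the smallest p that 3 arrays against 3 allow is 0.1. The median over members was -0.12 without the numbered RAG1-deficient array, which carried the CD8 signal, and -0.14 without the Thy double mutant array. It was -1.21 without the Thy RAG1-deficient array, and -0.21 without the Rag RAG1-deficient array. It was -1.05 without the numbered double mutant array and -0.58 without the Rag one.

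**Figure D2:**
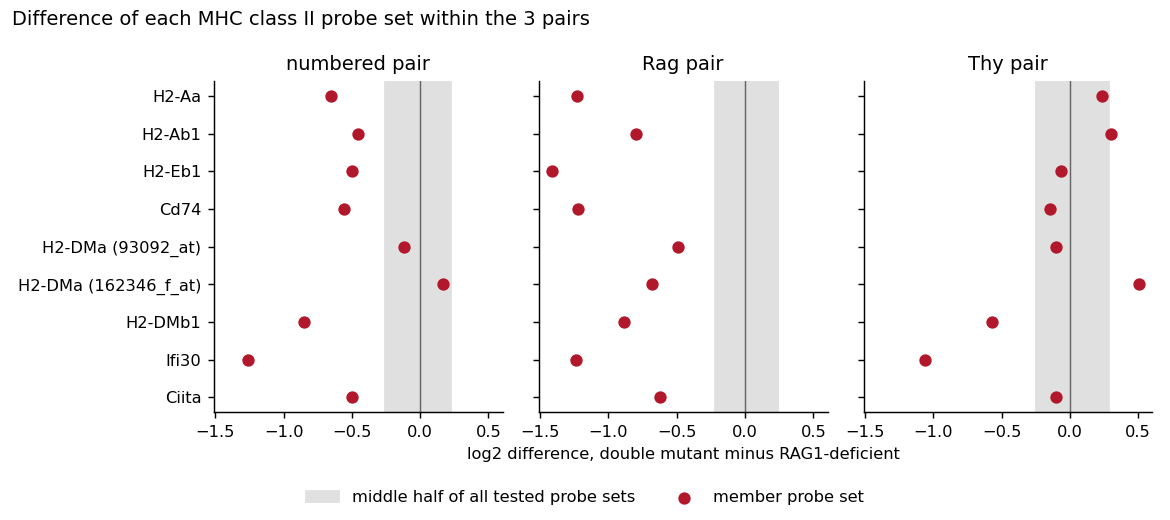
Log2 difference, double mutant minus RAG1-deficient, of each member probe set within the numbered, Rag and Thy pairs (points), with the interquartile range of all tested probe sets as a grey band and 0 as a line. All 9 points lie below 0 in the Rag pair and 8 in the numbered pair, and in the Thy pair Ifi30 and H2-DMb1 alone lie below the grey band.

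Most of the variation of the classical chains lay between title styles and not between groups. Title style held 90.5% of the sum of squares of H2-Aa over the 6 arrays, 93.6% of that of H2-Ab1, 88.5% for H2-Eb1 and 86.0% for Cd74, and group held between 2.08% and 9.46%. For H2-DMb1, Ciita and Ifi30 group held 38.0%, 34.01% and 24.3%. Over all tested probe sets the median share of title style was 72.1% and that of group 7.24%, so a large share of title style is common on these arrays. The variation itself was wide in these genes. The span from the lowest to the highest array was 3.65 on the log2 scale for Ifi30, 3.38 for H2-Aa, 3.09 for H2-Eb1, 2.86 for H2-Ab1 and 2.70 for Cd74, larger than in 97.1% to 99.2% of tested probe sets, whose median span was 0.95. The span of 0.49 of the brighter H2-DMa probe set was larger than in 10.04% of them.

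**Figure D3:**
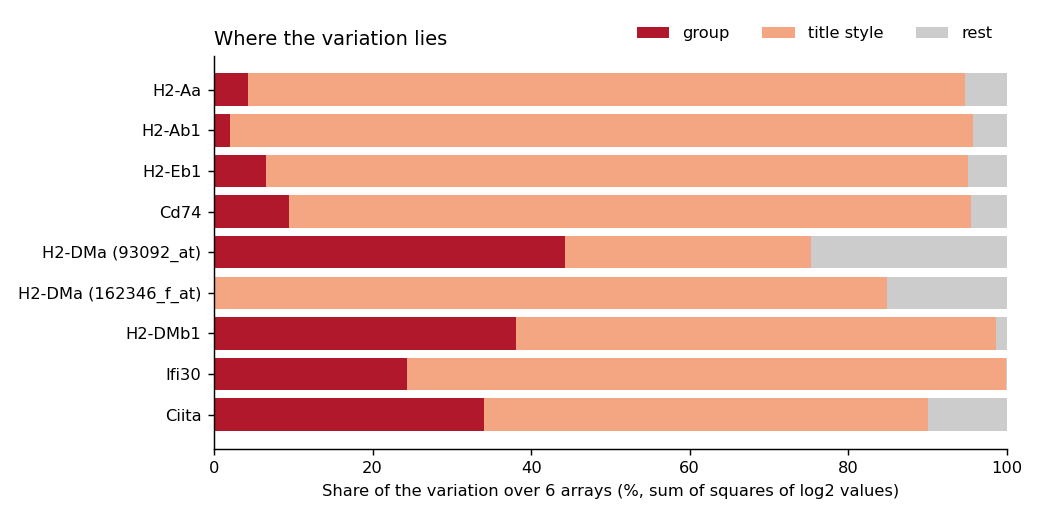
Share of the variation of each member probe set over the 6 arrays (%, sum of squares of log2 values) that lay between the groups, between the title styles, and in the rest. Title style takes 86.0% to 93.6% for H2-Aa, H2-Ab1, H2-Eb1 and Cd74, and group takes its greatest share, 44.3%, in the brighter H2-DMa probe set.

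Over all 6 arrays the other chains and Cd74 kept closer step with H2-Aa than H2-DMb1, Ciita and H2-DMa. The log2 level of H2-Eb1 relative to H2-Aa moved over a range of only 0.35 across the 6 arrays, that of H2-Ab1 over 0.58 and that of Cd74 over 1.04. The range was 1.39 for Ifi30, 2.29 for H2-DMb1, 2.55 for Ciita, and 3.13 and 2.22 for the brighter and the dimmer H2-DMa probe set. Most of these wide ranges came from the Thy arrays. Over the 4 numbered and Rag arrays alone the range was 0.34 for H2-DMb1, between the 0.32 of Cd74 and the 0.46 of H2-Ab1. It was 0.20 for H2-Eb1, 0.61 for Ifi30 and 0.64 for Ciita. For the brighter and the dimmer H2-DMa probe set it was 1.18 and 1.34. The log2 scale used understates the change of Ciita, which was dim, so its ranges are not directly comparable with those of the bright genes. From the highest array to the lowest, the order of all 6 arrays was identical in H2-Aa and H2-Ab1. H2-Eb1 and Ifi30 shared another order, which differed from that one only by a swap of the Thy arrays.

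In bulk RNA, fewer cells of a type and less RNA per cell cannot be told apart, and markers of other thymic cell types moved over the arrays as well. The summed intensity of the 8 members was 21499, 10887 and 5650 on double mutant arrays and 31587, 23867 and 6007 on RAG1-deficient arrays, which puts the double mutant at 68.1%, 45.6% and 94.1% within the numbered, Rag and Thy pairs. Dendritic cell markers (12 of 14 on the array) summed to 5499 to 10118 in the double mutant and 5253 to 9371 in the RAG1-deficient arrays, and stood at 108%, 89.95% and 105% within the pairs. Cst3, which encodes a secreted protease inhibitor, made up 47.1% to 74.6% of these sums, and without it, a choice made after the values were seen, the double mutant stood at 92.9%, 77.2% and 96.0%. By gene, 9 of the 12 lay lower in the double mutant, with a median log2 difference of -0.27, and 8, 10 and 9 of them did so in the numbered, Rag and Thy pairs. Among them Zbtb46, a transcription factor of conventional dendritic cells, stayed under the filter on all arrays. Itgax, an integrin of dendritic cells, read 348, 244 and 321 on double mutant arrays and 407, 381.5 and 388 on RAG1-deficient arrays, without overlap, and did not pass in the paired limma fit (adjusted p = 0.414).

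Monocyte and macrophage markers (13 of 14) summed to 3608 to 10467 in the double mutant and 3076 to 9377 in the RAG1-deficient arrays, at 112%, 49.3% and 117% within the pairs. By mean log2 value 11 of the 13 genes lay lower in the double mutant, with a median log2 difference of -0.18. Within the numbered, Rag and Thy pairs, however, 5, 12 and 3 of the 13 lay lower. Only in the Rag pair, therefore, did most of the 13 lie lower. Of these markers, C1qa, a complement gene known from macrophages, read 2159, 483 and 353 on double mutant arrays and 2109, 787 and 324 on RAG1-deficient arrays, and Adgre1, Itgam and Marco stayed under the filter. In the Rag pair the macrophage and class II sums were thus both lower in the double mutant, whereas in the numbered pair the class II sum was lower and the macrophage sum was not. Thymic epithelial markers (10 of 11) summed to 1392 to 4510 in the double mutant and 1389.5 to 5596 in the RAG1-deficient arrays, at 80.6%, 67.3% and 100.2% within the pairs, with Krt5, Krt14 and Foxn1 under the filter. Of the 10 genes 6 lay lower in the double mutant, with a median log2 difference of -0.07, and 6, 8 and 5 did so in the numbered, Rag and Thy pairs. The largest difference of the list was that of Cldn4, at -1.03 ± 0.40 (SE, unpaired) and without overlap. It stood at 39.05%, 30.4% and 88.5% within the pairs and did not pass in the paired limma fit (adjusted p = 0.175). Krt8, a keratin, read 975, 522 and 48.7 on double mutant arrays and 1131.5, 855.5 and 27.3 on RAG1-deficient arrays, and the epithelial chemokine gene Ccl25 read 1318, 1076 and 74.6 on double mutant arrays and 1502, 1502 and 62.3 on RAG1-deficient arrays. Both genes were lowest on the Thy arrays, but only 4 of the 10 epithelial genes were lower there than on the other arrays, with a median log2 difference of 0.06, and Epcam, for an epithelial adhesion molecule, read 193 on the double mutant and 236 on the RAG1-deficient Thy array, its highest level within each group. The haemoglobin gene Hba-a1 was low there too, at 794 on the double mutant and 375 on the RAG1-deficient Thy array, with at least 16352 on every other array.

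B lineage markers (13 of 14) were not lowest on the Thy arrays, and had sums of 2059 to 2668 in the double mutant and 2580.5 to 3480 in the RAG1-deficient arrays. The B lineage sum stood at 79.8%, 76.7% and 91.2% within the numbered, Rag and Thy pairs. Like the class II sum, it thus lay under its RAG1-deficient partner in each pair. Gene by gene the likeness was weaker. By pair 7, 7 and 5 of the 13 B lineage genes lay lower, against 8, 8 and 6 of the 8 class II genes. By mean log2 value 9 of the 13 B lineage genes lay lower, with a median log2 difference of -0.04. Without Cd79b, the brightest gene of the B lineage sum, a B cell receptor signalling chain, the shares were 73.2%, 70.9% and 104%. Vpreb3, Cd22, Ebf1 and Fcer2a of that list stayed under the filter on every array. The double-negative thymocyte sum was lower in the double mutant in each pair too, at 96.4%, 83.6% and 72.7%. Of its 12 genes 10 lay lower by mean log2 value, with a median log2 difference of -0.21. Within the numbered, Rag and Thy pairs 5, 9 and 11 of the 12 did so, so in the numbered pair most did not. So was the sum of Cd4, Cd8a and Cd8b1 lower in each pair, at 3.55%, 40.7% and 34.1%. The numbered share rests on the RAG1-deficient array of that pair, which read 2973 for Cd8a and 8426 for Cd8b1. On both Thy arrays Cd8a and Cd8b1 lay under the filter, and Cd8a read 15.6 in the double mutant and 14.7 in the RAG1-deficient array. Among these genes only Cd4 was bright enough to test. None of the markers of these lists passed in either limma fit. The part of any of these cell types in the class II differences was not tested.

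**Figure D4:**
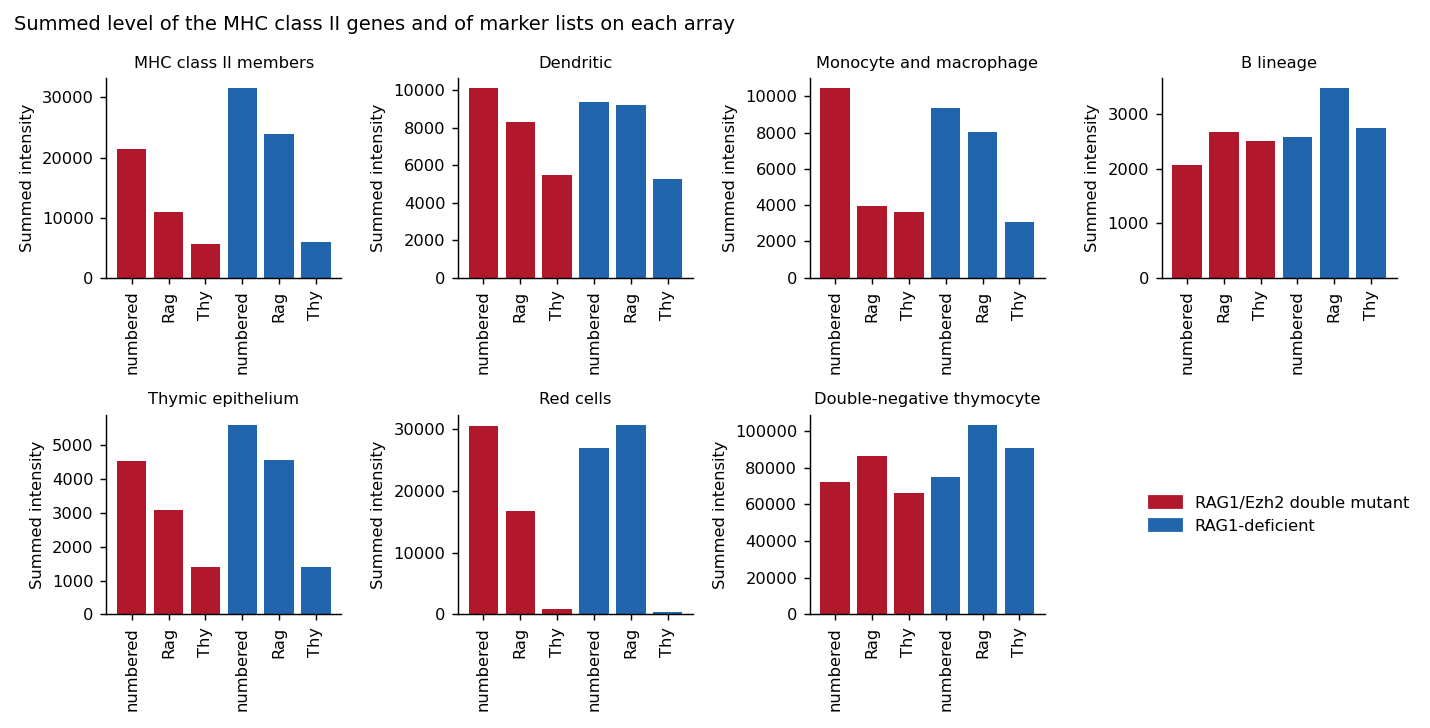
Summed intensity of the 8 class II genes and of 6 marker lists on each array, with the brightest probe set per gene, double mutant arrays first and RAG1-deficient arrays after them. In each group the class II, dendritic, macrophage, epithelial and red cell sums are lowest on the Thy array, and the B lineage sum is lowest on the numbered array; without Cst3 the dendritic sum is lowest on the Rag array of each group.

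Other genes of the pathway gave no call. Of 37 listed names, 29 genes had a probe set and 22 were bright enough to test, on 26 probe sets, of which 10 lay above and 16 below 0 with a median log2 difference of -0.08. None passed in either limma fit, and the number with an unadjusted p under 0.05 was 0 unpaired and 1 paired. That 1 was Ifngr1, a chain of the interferon gamma receptor, the cytokine that induces Ciita in many cells. It read 822, 852 and 664 on double mutant arrays and 1197, 815 and 2207 on RAG1-deficient arrays, with a log2 difference of -0.72 ± 0.35 (SE, unpaired) and a paired adjusted p of 0.366. The Thy RAG1-deficient array alone lay far above the rest, and Ifngr1 passed as lower in the paired limma fit without the Rag pair (adjusted p = 0.000339).

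The cathepsins that trim the invariant chain and cut proteins for display did not pass. Ctss, cathepsin S, which trims the invariant chain, read 2737, 1389 and 968.5 on double mutant arrays and 3077.5, 3135 and 1002 on RAG1-deficient arrays, with a log2 difference of -0.46 ± 0.51 (SE, unpaired). The difference was -0.58 ± 0.55 for Ctsl, which does this work in thymic epithelium, and -0.31 ± 0.35 for the brightest probe set of Ctsb. Rfxank, a subunit of the X box factor, differed by -0.42 ± 0.26. Of the Y box factor, Nfyb differed by 0.20 ± 0.28, and Nfyc by 0.26 ± 0.24 and 0.02 ± 0.33 on its 2 probe sets. Cd86, a costimulatory ligand, differed by -0.30 ± 0.41. H2-Oa and H2-Ob, which encode the inhibitor of H2-DM, lay at 0.08 ± 0.32 and 0.26 ± 0.71, and H2-Ea and H2-Eb2 were dim on every array, at no more than 55.3 and 31.8.

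The genes whose log2 profile over the 6 arrays was most like the mean standardised profile of the members were, in order, Psmb10, Ctss, Ifi207, Npc2, Rgl2, Col4a1, Rpl41, Alas1, Sin3b and Eef1a1. Their Pearson r lay between 0.971 and 0.989 over 6 arrays, which share title styles and were chosen from a search of the tested probe sets that name 1 gene, so the values describe likeness only. Psmb10, an immunoproteasome subunit, read 5264.5, 4248 and 3268 on double mutant arrays and 5870, 5578 and 3279 on RAG1-deficient arrays. Like H2-Eb1 and Ifi30, it had the numbered and Rag RAG1-deficient arrays on top and the Thy arrays lowest, over a span of 1.80-fold. Col4a1, a basement membrane collagen gene, spanned 18.2-fold, between 202 on the numbered and 11.1 on the Thy RAG1-deficient array.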

How the data were processed

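Total RNA of 3 RAG1/Ezh2 double mutant and 3 RAG1-deficient samples was measured on single-colour arrays. The deposited table holds linear intensities of 12488 probe sets; what software made it is not given in the sources used here. The 2%-trimmed mean, computed here, was 500.293 to 500.37 on every array, so the deposited intensities had been scaled to 1 common mean, so a shift of most transcripts together would not show. Groups came from the sample descriptions. The 66 control probe sets were left out. Platform annotation named 1 gene for 10833 probe sets, several genes for 396 others and none for 1193 more, and 10817 were found in RefSeq by Entrez number, with 0 symbols changed.

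Values were tested as log2(intensity + 23), 23 being the rounded 20th percentile, for 7642 probe sets above the 40th percentile (86.5) on at least 3 arrays, with limma 3.58.1 in R 4.3.3 (eBayes with trend, two-sided, Benjamini-Hochberg over all 7642). limma was tested on simulated data. Deviations from the group means correlated within styles at 0.570 (numbered), 0.736 (Rag) and 0.602 (Thy), above the limit of 0.1 set for pairing. No label states a shared litter or day. Members and lists were chosen with earlier results of these data known. Named partners are the 8 with the smallest unpaired p, and the 10 most alike genes go by Pearson r; H2-Oa, H2-Ob, H2-Ea, H2-Eb2 and H2-DMb2 were named after their values were seen, as were the single markers. Alternatives were quantile scaling, pseudocounts of 5 and 100, no or a stricter filter, no trend, the replicate block, and leaving out arrays or pairs. Figures used matplotlib 3.10.9.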

Additional observations from a re-analysis of the deposited data

How the results depend on the processing

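Of 161 single-member values under the alternatives, 146 kept their direction and their side of the threshold, 13 changed sign and 2 passed where the unpaired fit did not. All sign changes were of probe sets whose unpaired difference was smaller than its SE. The dimmer H2-DMa probe set lay at 0.0059 with a pseudocount of 5 and at 0.00128 with quantile scaling, with or without the replicate block. With arrays or pairs left out, it ranged between -0.55 and 0.37, H2-Aa between -1.61 and 0.12, H2-Ab1 between -1.21 and 0.27 and H2-Eb1 between -1.64 and 0.0234 (without the Thy double mutant array); the cause was not tested. The dimmer H2-DMa probe set lay at 0.34 with the block and the Rag pair left out. With title style as a replicate block, 1 member was called (Ifi30), against 0 without it; this number ranged between 0 and 1 over fits that left out an array or pair, as did that of the pathway partners, where Ifngr1 was called without the Rag pair. With quantile scaling or no filter added to the block, settings chosen after the data were seen, 0 members passed. The replicate block changed no other member's call. The median over members ranged between -1.21 and -0.12 with arrays or pairs left out, and was -0.59 with the brightest probe set per gene. Fits that leave 2 arrays in a group borrow most of their estimate of spread from other probe sets.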

Other observations

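A further probe set is assigned to both H2-DMb1 and H2-DMb2 and so was not counted among the members. It read 165, 121 and 16.3 on double mutant arrays and 281, 247 and 19.2 on RAG1-deficient arrays, in the order numbered, Rag and Thy. Its log2 difference was -0.57 ± 0.86 (SE, unpaired limma fit, n = 3 each) and it did not pass in the paired fit (adjusted p = 0.44). Its order of arrays is that of H2-Eb1 and Ifi30, with a 17.25-fold span from highest to lowest. The probe set assigned to H2-DMb1 alone, which could detect H2-DMb2 as well, spanned 3.96-fold.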
